A study of Homo sapiens with 6 samples.

Results

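The genes described here are 5 inhibitors of cyclin-dependent kinases (CDKs), CDKN1A, CDKN1B, CDKN1C, CDKN2C and CDKN2D, with the D-type cyclins CCND1 and CCND3, their kinase partners CDK4 and CDK6, and the retinoblastoma gene RB1. They were chosen by symbol, for their place in this pathway, with earlier results of these data known. All 10 are among the 23228 genes of the count files. RNA was sequenced from MDA-MB-231, an established human triple-negative breast cancer line, grown in DMEM with serum. In 3 libraries the cells had received lentivirus with short hairpin RNA (shRNA) against SCUBE3, which encodes a secreted EGF-domain protein, and in 3 libraries lentivirus with a scrambled shRNA (Scramble). Both kinds of cell had been kept under puromycin. The labels give neither the hairpin sequences nor their number. They do not say whether replicates were grown apart, so each p-value reflects the scatter of these 6 libraries alone, and that scatter may be technical.

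The pathway controls entry into the cell cycle. D cyclins bind CDK4 or CDK6, and these complexes, followed by cyclin E with CDK2, phosphorylate the RB protein, which then lets go of E2F transcription factors and so allows replication genes to be transcribed. INK4 inhibitors (the CDKN2 genes) bind CDK4 and CDK6 themselves, while CIP/KIP inhibitors (the CDKN1 genes) bind cyclin-CDK complexes and block CDK2 above all; CIP/KIP proteins are also known to help assemble D cyclins with their kinases. Loss of CDKN2A, of RB1 or gain of CCND1 is common in cancer, and MDA-MB-231 is known to lack CDKN2A.

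The targeted gene, SCUBE3, was not called lower. It had 99, 107 and 101 reads in the libraries labelled shSCUBE3, against 96, 91 and 80 reads in Scramble libraries, and in CPM the groups overlapped. CPM is the usual unit of read counts scaled to a common library size, here with edgeR's TMM factors. Its log2 fold change of 0.03 ± 0.14 (SE, the standard error) had a 95% interval from -0.26 to 0.31 and an adjusted p of 0.871 (edgeR, quasi-likelihood, adjusted after Benjamini and Hochberg like all others below). An exact two-sided permutation test gave p = 0.8 (n = 3 per group), where 0.1 is the smallest p possible. SCUBE3 protein was checked by western blot per the labels and is not analysed here. Each direction below is that of the labels. From these counts, an effect of the hairpin and a difference in labelling or in cell stock between the groups cannot be told apart.

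Library depth was 24249429 to 25520901 reads in genes for the libraries labelled shSCUBE3 and 21348509 to 24234762 for Scramble libraries. The groups differed across the transcriptome: among 13606 genes with enough reads to test, 85.9% were called by edgeR at the 0.05 threshold, 43.4% higher and 42.5% lower, and for 85.8% the CPM of the groups did not overlap. A call in a single gene is therefore the rule in this comparison, and sizes are given beside each call. Reads aligned to several places made up 29.3% to 29.6% of the file totals in the libraries labelled shSCUBE3 and 34.0% to 34.2% in Scramble libraries; the part of this difference in the results was not tested. The mesenchymal-like markers VIM, CD44, AXL, EGFR and MSN summed to 5846 to 5996 CPM in the libraries labelled shSCUBE3 and to 8935 to 9352 CPM in Scramble libraries; 4 of them were lower, while CD44 was higher, at 1045 CPM with the shSCUBE3 label and 577 CPM in Scramble. Of 6 luminal or epithelial markers, ESR1 and PGR had 0 reads in the libraries labelled shSCUBE3 and 0.118 and 0.982 CPM in Scramble libraries, and ERBB3 and KRT18 were also lower. GATA3 (15.5 CPM with the shSCUBE3 label, 5.91 CPM in Scramble) and CDH1 (2.01 CPM with the label, 0.0458 CPM in Scramble) were higher. Leukocyte markers (PTPRC, CD3E, CD14 and LYZ) summed to 6.87 to 7.61 CPM in the libraries labelled shSCUBE3, most of it CD14, and to 0.315 to 0.716 CPM in Scramble libraries, with CD3E at 0 reads in Scramble libraries. Fibroblast markers (COL1A1, COL3A1, PDGFRB and DCN) summed to 19.0 to 21.5 CPM with the shSCUBE3 label, against 5.09 to 6.20 CPM in Scramble, with DCN at 0 reads in all 6 libraries. Endothelial markers (PECAM1, VWF and CDH5) summed to 2.60 to 2.85 CPM with the shSCUBE3 label, against 0.810 to 1.47 CPM in Scramble. Their part in the results was not tested. Since the RNA is that of whole cultures, fewer cells in a phase or state and less RNA per cell cannot be told apart.

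Promoter sequences are shown to set the genes that moved beside those that moved little. RefSeq's promoter table (GRCh38.p14, whereas the reads were counted on hg19) held 13 windows for 8 of the 10 genes, without CDKN1C and CCND1. Shown are the 250 bases before the annotated start for 4 genes with a single window: CDKN1A and CDKN2D, which rose more than 2-fold, CDKN1B, which rose little, and CDK4, for which no change was called. RB1 also has a single window, which lies deep inside the gene and is not printed. Capitals mark matches on either strand to any of 4 motifs. The GC box, bound by SP1 and its relatives, was searched as GGGCGG, and 2 of those of CDKN1A share a base. The E-box, bound by MYC among others, was searched as CACGTG. The TATA box was searched as TATAAA. The E2F-like motif was searched as TTTNNCGC.
CDKN1A, chr6:36678464-36678713, plus strand: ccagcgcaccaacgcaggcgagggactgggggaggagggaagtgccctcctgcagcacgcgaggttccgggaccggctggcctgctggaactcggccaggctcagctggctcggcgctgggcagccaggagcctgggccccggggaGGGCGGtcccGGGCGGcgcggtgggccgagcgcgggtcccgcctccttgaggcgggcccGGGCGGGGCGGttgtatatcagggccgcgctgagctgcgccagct
CDKN2D, chr19:10568980-10569229, minus strand: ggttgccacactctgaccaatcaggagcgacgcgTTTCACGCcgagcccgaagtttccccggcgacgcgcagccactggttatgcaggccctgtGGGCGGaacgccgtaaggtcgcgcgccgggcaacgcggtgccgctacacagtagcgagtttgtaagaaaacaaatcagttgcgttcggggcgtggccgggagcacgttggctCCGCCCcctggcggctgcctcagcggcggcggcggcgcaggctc
CDKN1B, chr12:12717118-12717367, plus strand: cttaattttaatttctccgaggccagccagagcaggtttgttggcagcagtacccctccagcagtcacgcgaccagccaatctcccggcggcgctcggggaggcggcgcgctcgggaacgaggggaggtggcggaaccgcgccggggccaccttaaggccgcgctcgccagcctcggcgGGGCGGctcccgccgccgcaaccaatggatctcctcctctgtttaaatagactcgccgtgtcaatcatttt
CDK4, chr12:57752311-57752560, minus strand: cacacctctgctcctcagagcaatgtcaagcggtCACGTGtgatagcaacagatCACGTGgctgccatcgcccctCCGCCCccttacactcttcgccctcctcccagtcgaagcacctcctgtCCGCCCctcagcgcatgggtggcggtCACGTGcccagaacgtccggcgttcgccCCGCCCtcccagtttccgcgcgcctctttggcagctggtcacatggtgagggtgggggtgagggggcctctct
The CDKN1A window held 4 GC boxes, the CDKN2D window 2, the CDKN1B window 1 and the CDK4 window 3. The CDK4 window also held 3 E-boxes and the CDKN2D window 1 E2F-like motif, and no TATA box of these letters was in any of the 4 windows. Of 35116 such windows of 250 bases in the table, 42.6% held a GC box, 6.34% an E-box, 10.7% a TATA box and 5.92% the E2F-like motif. Windows not printed held 0, 5 and 1 GC boxes for CDKN2C, which rose little, and 5, 2 and 0 for CCND3. Those of CDK6 held 3 and 0, and that of RB1 held 0. Any link between these matches and the changes was not tested. A match describes these letters and is not a shown binding site.

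In the libraries labelled shSCUBE3, 7 of the 10 genes were higher, 2 were lower and CDK4 did not pass the test, a share of 90% called where 85.9% of all genes were. All 10 passed the low-count filter. The median log2 fold change over the 10 genes was 0.36, against 0.01 over all genes tested, and the median size of the change was 0.76 against 0.64. Because the 10 genes were chosen with earlier results known, these medians describe this set alone. The sizes were unlike: 5 of the 10 were called and changed 2-fold or more in either direction, as 31.2% of all genes were, and the same 5 passed a test against a 1.5-fold change (edgeR glmTreat, adjusted p under 0.05), as 45.9% of all genes did. These were CDKN1A, CDKN1C, CDKN2D and CCND3, higher, and RB1, lower. In CPM, 9 of the 10 genes had no overlap between groups, against 85.8% of all genes.

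**Figure D1:**
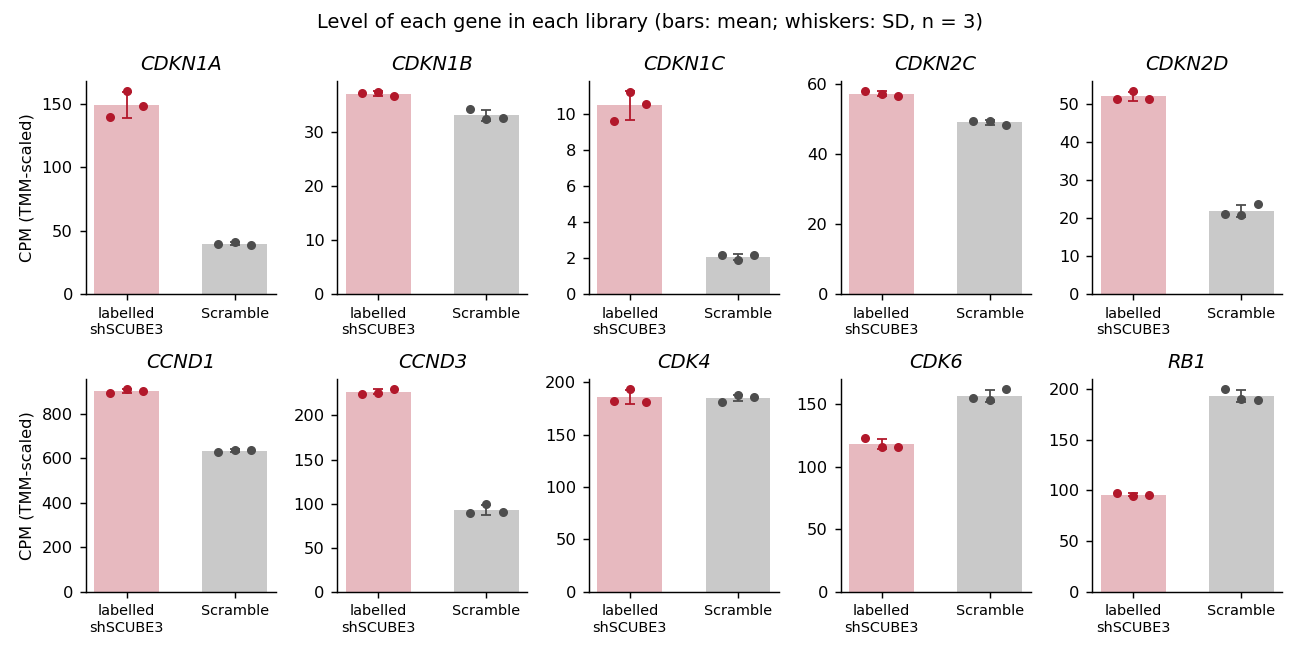
CPM (vertical axes, each starting at 0) of the 10 genes in the 3 libraries labelled shSCUBE3 (red) and the 3 Scramble libraries (grey); points are libraries, bars means and whiskers SD. The groups stand apart in 9 panels, and in that of CDK4 they overlap.

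**Figure D2:**
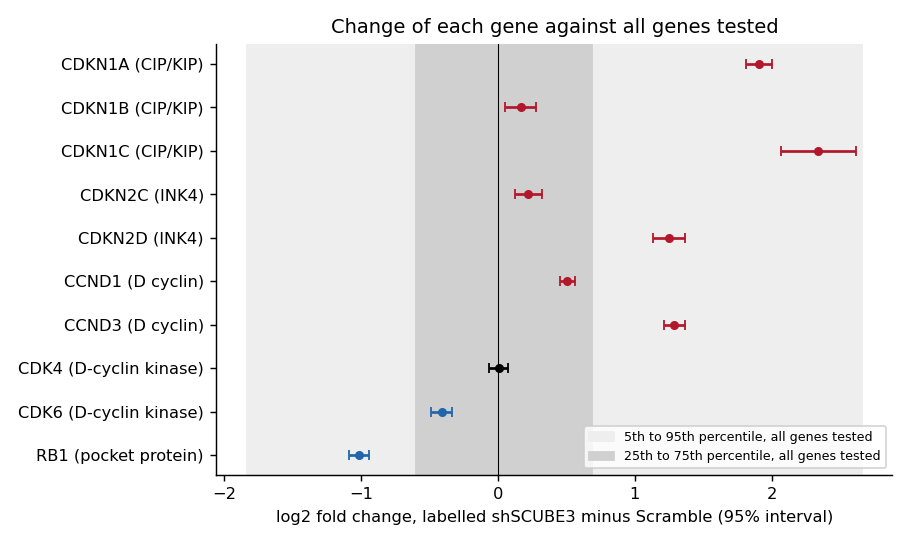
Log2 fold change (horizontal axis, labelled shSCUBE3 minus Scramble) of each gene with its 95% interval, red where called higher, blue where called lower and black where not called. The dark and light bands hold the middle 25th to 75th and 5th to 95th percentiles of all 13606 genes tested; no gene of the 10 lies outside the light band.

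Among CIP/KIP inhibitors, CDKN1A and CDKN1C rose 3.75-fold and 5.09-fold and CDKN1B 1.12-fold. CDKN1A encodes p21, which halts the cycle after DNA damage and in differentiation. It had 139.6, 160.2 and 148 CPM in the libraries labelled shSCUBE3, against 39.1, 41.2 and 39.0 CPM in Scramble libraries. Every library with the shSCUBE3 label lay far above every Scramble library. The log2 fold change was 1.91 ± 0.05 (SE; edgeR adjusted p = 7.84e-31), larger in size than that of 87.7% of genes tested. Its spread was wider with the shSCUBE3 label, at 149 ± 10.3 CPM against 39.8 ± 1.23 CPM in Scramble (SD, n = 3 each).

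CDKN1C encodes p57, an imprinted inhibitor active in development. It was the least abundant of the 10 genes in either group, with 240, 290 and 261 reads in the libraries labelled shSCUBE3, against 51, 39 and 48 reads in Scramble libraries. That is 9.62, 11.2 and 10.6 CPM with the shSCUBE3 label, against 2.15, 1.86 and 2.16 CPM in Scramble. The groups were far apart, and the log2 fold change of 2.34 ± 0.13 (SE; 95% interval 2.07 to 2.61; edgeR adjusted p = 5.82e-19) was the largest of the 10. Its counts were the lowest of the 10 and its interval the widest.

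CDKN1B encodes p27, which is known to be governed mainly through its degradation by the SKP2 ubiquitin ligase. It had 37.2, 37.5 and 36.6 CPM in the libraries labelled shSCUBE3, against 34.3, 32.4 and 32.5 CPM in Scramble libraries. The libraries did not overlap, but the difference was small: a log2 fold change of 0.17 ± 0.06 (SE; 95% interval 0.05 to 0.28; edgeR adjusted p = 0.00603), smaller than that of most genes.

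The INK4 inhibitors that could be read also differed in size of change. CDKN2D, which encodes p19-INK4d, had 1285, 1386 and 1268 reads in the libraries labelled shSCUBE3, against 498, 439 and 528 reads in Scramble libraries. In CPM it averaged 52.1 ± 1.21 with the shSCUBE3 label and 21.9 ± 1.62 in Scramble (SD, n = 3 each). The groups were far apart, with a log2 fold change of 1.25 ± 0.06 (SE; edgeR adjusted p = 6.56e-22). CDKN2C, which encodes p18-INK4c, had 58.0, 57.1 and 56.6 CPM with the shSCUBE3 label, against 49.5, 49.6 and 48.2 CPM in Scramble. Its log2 fold change was 0.22 ± 0.05 (SE; edgeR adjusted p = 6.44e-05), without overlap between the groups.

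The other INK4 genes were at or next to 0 reads in both groups. CDKN2A, which encodes p16-INK4a and ARF, had 0 reads in the 3 libraries labelled shSCUBE3 and 1, 0 and 0 reads in Scramble libraries. CDKN2B, which encodes p15-INK4b, and its neighbour on chromosome arm 9p, MTAP, an enzyme of methionine salvage, had 0 reads in all 6 libraries. A count of 0 allows up to 0.0397 CPM in the libraries labelled shSCUBE3 and 0.0448 CPM in Scramble libraries (3 reads over the group, counting error only). MDA-MB-231 is known to have lost this locus.

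Both D cyclins were higher, CCND3 by more than CCND1. CCND1, cyclin D1, was the most abundant of the 10 genes, with 892, 911 and 900.3 CPM in the libraries labelled shSCUBE3, against 626, 637 and 638 CPM in Scramble libraries. The replicates lay close together and the groups apart, and the log2 fold change was 0.51 ± 0.03 (SE; edgeR adjusted p = 5.24e-20), a mean 1.42-fold higher. CCND3, cyclin D3, had 225, 225 and 230.2 CPM with the shSCUBE3 label, against 88.9, 99.0 and 90.6 CPM in Scramble. Its mean was 2.44-fold higher, with a log2 fold change of 1.29 ± 0.04 (SE; edgeR adjusted p = 1.52e-28). The remaining D cyclin, CCND2, was at trace level, with 27, 33 and 29 reads in the libraries labelled shSCUBE3, against 62, 46 and 54 reads in Scramble libraries, and was lower (log2 fold change -1.04 ± 0.21, SE; edgeR adjusted p = 2.86e-05).

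Their kinases did not move with them. CDK4 had 182, 194 and 181 CPM in the libraries labelled shSCUBE3, against 181, 187 and 186 CPM in Scramble libraries, and the groups overlapped. The 95% interval of its log2 fold change, 0.01 ± 0.03 (SE; edgeR adjusted p = 0.857), ran from -0.06 to 0.08. CDK4 overlaps TSPAN31 on the other strand (log2 fold change 0.42 ± 0.09, SE, with 14.1 CPM under the shSCUBE3 label and 10.5 CPM in Scramble). Reads where these genes overlap may be mixed or left out of both counts. CDK6 had 123, 116 and 116 CPM with the shSCUBE3 label, against 155, 154 and 162 CPM in Scramble. All 3 libraries labelled shSCUBE3 were lower, with a log2 fold change of -0.41 ± 0.04 (SE; edgeR adjusted p = 6.51e-13) and a mean ratio of 0.752.

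RB1, the substrate on which these complexes act, fell. It had 2418, 2435 and 2365 reads in the libraries labelled shSCUBE3, against 4750, 3979 and 4195 reads in Scramble libraries, or 95.5 ± 1.48 CPM with the shSCUBE3 label and 193 ± 6.19 CPM in Scramble (SD, n = 3 each). The mean ratio was 0.495 and the groups were far apart, with a log2 fold change of -1.01 ± 0.04 (SE; edgeR adjusted p = 1.41e-25). The gene LPAR6, which lies inside RB1, had almost no reads (0 CPM with the shSCUBE3 label and 0.0150 CPM in Scramble). The RB relatives RBL1, which encodes p107, and RBL2, which encodes p130, were lower too, with log2 fold changes of -0.77 ± 0.04 and -0.82 ± 0.05 (SE; edgeR adjusted p = 4.31e-19 and 1.21e-17).

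Ratios of reads between genes of the same library need no scaling between libraries, and 6 such pairs of genes were compared. CDKN1A had 3.75, 4.28 and 4.05 reads per read of CDKN1B in the libraries labelled shSCUBE3, against 1.14, 1.27 and 1.2 in Scramble libraries. CDKN2D had 0.887, 0.936 and 0.906 reads per read of CDKN2C with the shSCUBE3 label, against 0.424, 0.422 and 0.493 in Scramble. CCND3 had 0.252, 0.247 and 0.256 reads per read of CCND1 with that label, against 0.142, 0.155 and 0.142 in Scramble. In each of these 3 pairs the ratio was higher with the shSCUBE3 label, and the gene with more reads was the same in both groups. CDK6 per CDK4 was 0.673, 0.599 and 0.638 with that label, against 0.854, 0.820 and 0.874 in Scramble, and RB1 per CDK4 was 0.531, 0.485 and 0.529, against 1.10, 1.01 and 1.02 in Scramble. CDKN1A per CCND1 was 0.156, 0.176 and 0.164, against 0.0625, 0.0647 and 0.0611 in Scramble, so the inhibitor rose by more than the cyclin (difference of log2 ratios 1.40). None of the 6 ratios overlapped between groups, and each had an exact two-sided permutation p of 0.1 (n = 3 per group, and 0.1 after adjustment over the 6), the smallest this design allows. Every pair holds a gene whose CPM did not overlap between groups, as was so for 85.8% of all genes tested. Separate ratios therefore add little to the values of the single genes.

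Levels of different genes were compared per length, as CPM divided by the length in kb of 1 transcript per gene (GENCODE 29). On that scale CCND1 was the highest of the 10 in both groups, at 209 ± 2.19 CPM per kb in the libraries labelled shSCUBE3 and 147 ± 1.5 in Scramble libraries (SD, n = 3 each), and CDKN1C the lowest, at 5.40 ± 0.409 with the shSCUBE3 label and 1.06 ± 0.0875 in Scramble. The order between them in the libraries labelled shSCUBE3 was CCND3, CDK4, CDKN1A, CDKN2D, RB1, CDKN2C, CDKN1B and CDK6, where only RB1 and CDKN2C overlapped. In Scramble libraries it was CDK4, CCND3, RB1, CDKN1A, CDKN2C, CDKN2D, CDK6 and CDKN1B, where only CDKN2C and CDKN2D overlapped. RB1 thus stood above every CDK inhibitor in Scramble libraries (40.2 ± 1.29 CPM per kb), and below CDKN1A and CDKN2D in the libraries labelled shSCUBE3 (19.9 ± 0.308 CPM per kb). Both orders rest on the lengths used, were not repeated with others, and places in them can change with another length. For CDK6 the length used was 11612 bases, where the median of its transcripts is 6538.5 bases.

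Summed per length over each family, CIP/KIP inhibitors reached 85.2 ± 5.02 CPM per kb in the libraries labelled shSCUBE3, against 31.1 ± 0.424 in Scramble libraries, and the INK4 inhibitors 56.3 ± 0.864 against 32.3 ± 0.872. The D cyclins summed to 318 ± 2.64 CPM per kb with the shSCUBE3 label and 192 ± 3.58 in Scramble. CDK4 and CDK6 together summed to 99.6 ± 3.23 CPM per kb with the shSCUBE3 label and 102.6 ± 1.58 in Scramble. The pocket proteins RB1, RBL1 and RBL2 summed to 38.2 ± 0.570 CPM per kb with the shSCUBE3 label, against 71.9 ± 1.49 in Scramble. CDKN1A made up 77.2% ± 0.801 of the CIP/KIP sum in the libraries labelled shSCUBE3 and 56.5% ± 1.42 in Scramble libraries. CDKN2D made up 65.0% ± 0.609 of the INK4 sum with the shSCUBE3 label and 47.6% ± 2.21 in Scramble. CCND3 made up 34.2% ± 0.369 of the D cyclin sum with that label and 23.2% ± 0.940 in Scramble, and RB1 made up 52.2% ± 0.325 of the pocket protein sum with the label and 56.0% ± 0.886 in Scramble (SD, n = 3 each). These shares depend on the transcript chosen: with the median length of a gene's transcripts, CCND3 made up 22.8% with the shSCUBE3 label and 14.7% in Scramble, with the same direction between groups.

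**Figure D3:**
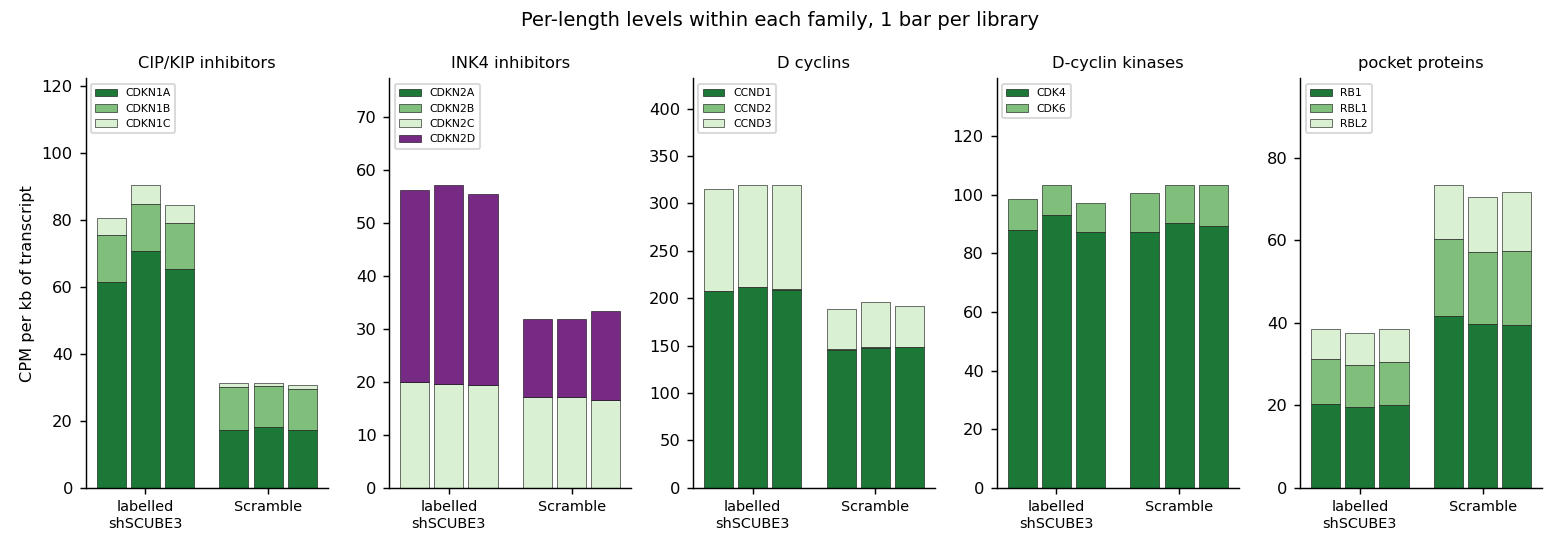
CPM per kb of transcript (vertical axes from 0) stacked by gene within 5 families, 1 bar per library, with the libraries labelled shSCUBE3 left of the Scramble libraries. The bars of both inhibitor families and of the D cyclins are taller under the shSCUBE3 label, those of CDK4 and CDK6 reach like heights, and those of the pocket proteins are about as tall as the RB1 part alone in Scramble.

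Other genes of the pathway moved in both directions. Of 126 tested genes in 8 lists, 46 were higher and 59 lower in the libraries labelled shSCUBE3, a share of 83.3% called against 85.9% of all genes, with a median log2 fold change of -0.08. Among other cyclins, CDKs and their activators, 6 of 15 were higher and 9 lower (median -0.38), so 100% were called, against 85.9% of all genes. CCNG2, an atypical cyclin linked to arrest, was 36.7 CPM with the shSCUBE3 label and 6.27 CPM in Scramble (log2 fold change 2.54 ± 0.08, SE), and CCNA2, the cyclin of S phase and mitosis, was higher (1.08 ± 0.04). CDK2, the main kinase blocked by CIP/KIP proteins, was lower (-0.68 ± 0.04), as was CCNG1 (-0.75 ± 0.04). The E-type cyclins CCNE1 (0.67 ± 0.07) and CCNE2 (0.73 ± 0.06), which bind CDK2, were higher. CDKN3, a phosphatase that acts on CDK2, was lower (-0.63 ± 0.04).

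Among pocket proteins and E2F or DP factors, 4 of 12 were higher, 5 lower and 3 not called (median -0.04). The share called was 75%, below the 85.9% of all genes. E2F4, which represses with p107 and p130 in resting cells, had 89.6 CPM in the libraries labelled shSCUBE3, against 310.1 CPM in Scramble libraries (log2 fold change -1.79 ± 0.04, SE). Its dimer partner TFDP1 (-0.67 ± 0.03) and RBL1 were lower, and E2F5 was higher (1.58 ± 0.09). The next list held 8 genes, 6 for subunits or partners of the DREAM and MuvB complexes, which hold cell-cycle genes silent with p130 or activate them with MYBL2, and DYRK1A and DYRK1B for kinases that promote DREAM assembly. Of the 8, 5 were higher and 3 lower (median 0.25), with both kinases among the higher ones (0.33 ± 0.05 and 0.97 ± 0.11). Here 100% were called, against the same 85.9% of all genes. LIN9 (-0.98 ± 0.06), LIN52 (-0.98 ± 0.08) and MYBL2 (-0.58 ± 0.04) were lower and RBBP4 (0.57 ± 0.05) higher.

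Of 20 genes of the ubiquitin ligases that degrade CDK inhibitors and cyclins, 8 were higher, 6 lower and 6 not called (median 0.03). That is a share of 70% called, below the 85.9% of all genes. SKP2, the subunit that recognises p27, had 47.7 CPM in the libraries labelled shSCUBE3, against 137 CPM in Scramble libraries (log2 fold change -1.52 ± 0.04, SE; edgeR adjusted p = 3.53e-29). The cullin partner RBX1 (1.68 ± 0.06) and CUL4B (0.82 ± 0.04) were higher, and PCNA, the platform on which p21 is degraded, was lower (-0.64 ± 0.03). The RNA of p27 itself differed little, as given above, and protein was not analysed here.

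Genes known as RB-E2F targets were called in 28 of 32 cases, 19 lower and 9 higher, a share of 87.5% where 85.9% of all genes were called, with a median log2 fold change of -0.25 against 0.01 over all genes. POLA1, of DNA polymerase alpha (-1.28 ± 0.04, SE), the ribonucleotide reductase gene RRM2 (-0.85 ± 0.03) and SKP2 were lower, while CCNA2 was higher. E2F1 itself, a target and an activator, was higher (0.80 ± 0.05), and MCM5, MCM6, TYMS and POLE were not called.

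Of 23 transcription factors known to act on CDK inhibitor genes, 7 were higher, 11 lower and 5 not called (median -0.21). A share of 78.3% was called, below the 85.9% of all genes. MYC, known to repress CDKN1A, had 200.1 CPM with the shSCUBE3 label, against 70.6 CPM in Scramble (1.51 ± 0.04). SP1, which binds GC boxes such as those of the CDKN1A window, was lower (-1.02 ± 0.04), as were TFAP4, another repressor of CDKN1A (-1.52 ± 0.07), and the histone methyltransferase gene EZH2 (-0.99 ± 0.04). The part of any of these in the levels of the inhibitors was not tested.

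**Figure D4:**
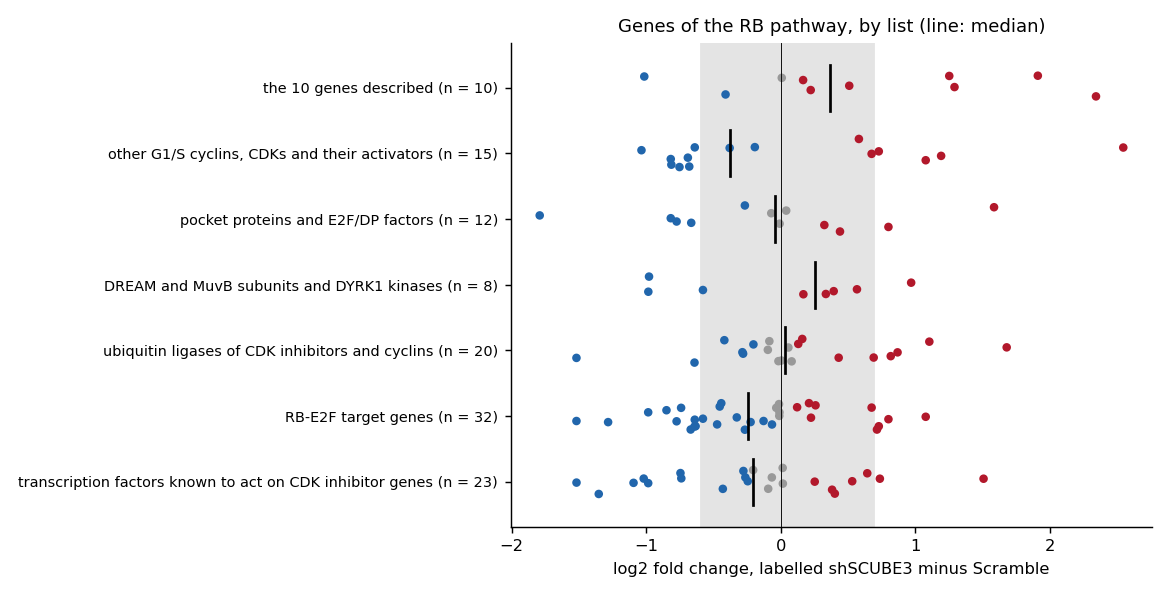
Log2 fold change (horizontal axis, labelled shSCUBE3 minus Scramble) of each tested gene in 6 lists of pathway genes and of the 10 genes described, red where called higher, blue where called lower and grey where not called; vertical lines are medians and the band holds the 25th to 75th percentiles of all genes. The median of the 10 genes, 0.36, lies to the right of the medians of the 6 lists, which run from -0.38 to 0.25. The 10 genes and the lists were chosen with earlier results known, so the order of the medians is a description only.

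The neighbours of each gene on its chromosome were read beside it. For each gene the 5 nearest tested genes on either side were read, in RefSeq's order on GRCh38.p14. Over all genes tested 43.4% were called higher and 42.5% lower, so most neighbours of any gene are called in one direction or the other. Around CCND3, on chromosome 6, all 10 neighbours were higher, with a median log2 fold change of 0.90, among them its nearest neighbours BYSL (1.18 ± 0.04, SE) and TAF8 (0.81 ± 0.04). Around CDKN1A, also on chromosome 6, 8 of 10 were higher, 1 lower and 1 not called (median 0.86), where SRSF3 next to it was slightly lower (-0.21 ± 0.03) and CPNE5 on the other side was not called (0.20 ± 0.20). Around CDKN1C, on chromosome 11, 8 were higher and 2 not called (median 0.89), among them SLC22A18 next to it (3.21 ± 0.25), while KCNQ1OT1, an antisense RNA of the same imprinted domain, was not called (0.06 ± 0.09). Of these 3 genes, CCND3 and CDKN1A changed by more than all but 1 of their neighbours and CDKN1C by more than all but 2.

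Around RB1, on chromosome 13, 7 of 10 neighbours were lower, 1 was higher and 2 were not called (median -0.27). ITM2B next to it was slightly higher (0.16 ± 0.04, SE) and RCBTB2 lower (-0.70 ± 0.12). The neighbours of CDKN2D (7 higher, 3 lower), CDKN2C (7 higher, 1 lower), CCND1 (7 higher, 3 lower), CDK6 (5 higher, 3 lower), CDKN1B (4 higher, 6 lower) and CDK4 (3 higher, 6 lower) also held calls in both directions. For CDK4, all 10 neighbours changed by more than the gene itself. Of the nearest genes, MYEOV next to CCND1 was higher by 1.87 ± 0.04 and ORAOV1 lower (-0.39 ± 0.06). KRI1 (-0.86 ± 0.04) and AP1M2 (0.35 ± 0.06) flanked CDKN2D, FAF1 (-0.25 ± 0.04) and RNF11 (0.57 ± 0.04) CDKN2C, GPR19 (-1.98 ± 0.28) and APOLD1 (0.43 ± 0.13) CDKN1B, and MARCH9 (-0.77 ± 0.08) CDK4 on the side away from TSPAN31. Beside CDK6, SAMD9 was lower (-0.15 ± 0.06) and FAM133B was not called (0.42 ± 0.38). Copy number was not measured, and its part in these values was not tested.

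**Figure D5:**
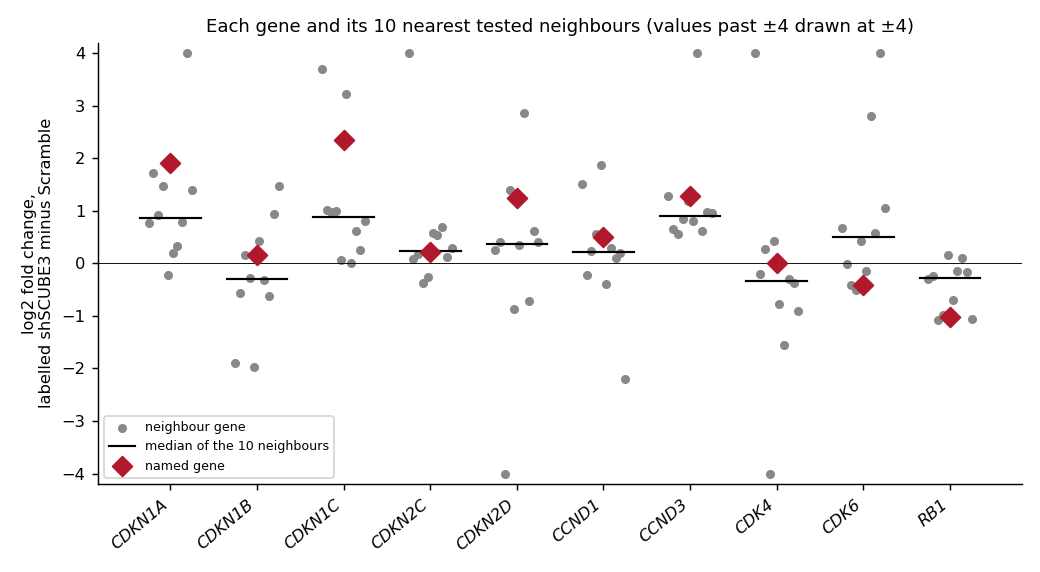
Log2 fold change (vertical axis, labelled shSCUBE3 minus Scramble) of each of the 10 genes (red diamonds) and of its 10 nearest tested neighbours (grey points; values beyond 4 in size are drawn at the edge), with their median as a line. The neighbours of CCND3 all lie above 0, and those of RB1 lie mostly below it.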

How the data were processed

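RNA of 6 MDA-MB-231 samples was sequenced as single reads from a stranded mRNA kit, per the labels' protocols. The authors deposited raw read counts per gene symbol, unnormalized. Per the submitters' processing notes these came from bcl2fastq, TopHat2 2.0.8b and HTSeq with hg19. HTSeq's settings and the annotation release were not given in the sources used here. Reads of genes that overlap, on either strand, may therefore be mixed, or left out of both counts as ambiguous. Ambiguous reads were 0.534% to 0.597% of a file's total across the 6 libraries. Reads in genes were 58.8% to 59.0% of a file's total in the libraries labelled shSCUBE3 and 50.3% to 51.0% in Scramble. The rest stood in 5 summary lines, which entered neither library sizes nor tests.

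Samples were grouped by title. edgeR 4.0.16 (R 4.3.3) kept genes with filterByExpr, used TMM scaling, and ran a robust quasi-likelihood F test with group alone as a term, two-sided, with Benjamini-Hochberg adjustment over all genes tested and a threshold of 0.05. The procedure was checked on simulated counts. SE is log2 fold change over the square root of F. Replicates varied beyond counting noise (chi-square of 1.69 to 3.56 for each degree of freedom), and no libraries were merged. Transcript lengths are those of each gene's longest APPRIS-principal transcript in GENCODE 29. RefSeq's order placed 96.1% of the genes tested. No molecular identifiers were used, and floors cover counting error only.

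The 10 genes and the lists were chosen with earlier results of these data known. Named are the 10 genes, SCUBE3, the list with the remaining INK4 genes, the 4 smallest adjusted p-values of each other list and the nearest neighbours; 1 list, counted among the 126 pathway genes, and 1 leukocyte marker, which enters no sum, are not reported here. CCND2, CCNE1, CCNE2, RBL2, E2F1, DYRK1A, DYRK1B, MCM5, MCM6, TYMS, POLE and LPAR6 were added after their values were seen. Alternatives were other scalings and filters, DESeq2 1.42.0, limma-voom (limma 3.58.1), a replicate block, omission of single libraries, stricter thresholds and another transcript length.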

Additional observations from a re-analysis of the deposited data

How the results depend on the processing

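Under 16 alternatives the 10 genes gave 160 fold changes, of which 154 kept their direction and their side of the threshold. The calls for 9 of the 10 genes held in 15 of the 16 alternatives. Against a 1.5-fold change, 5 of the 10 genes passed, 52 of the pathway genes and 6251 of all genes; CDKN1B (0.17), CDKN2C (0.22), CCND1 (0.51) and CDK6 (-0.41) no longer did (adjusted p = 1 each, edgeR glmTreat), since their fold changes are near or below that bound. Leaving out each library in turn gave 11450 to 11630 genes called in all, 102 to 105 pathway genes and 9 of the 10 genes each time. The log2 fold change of CDK4 ran from -0.0206 to 0.0291 when a library was left out, negative without shSCUBE3 replicate 2 (-0.0206) and without Scramble replicate 1 (-0.0126). That of SCUBE3 ran from -0.0503 to 0.0796, negative without Scramble replicate 3 (-0.0503). Over all alternatives CDKN1A stayed between 1.86 and 1.96, CDKN1C between 2.27 and 2.40, CDKN2D between 1.21 and 1.31, CCND3 between 1.25 and 1.34 and RB1 between -1.04 and -0.96. CDKN1B, the smallest called change, had adjusted p-values up to 0.0266 in the alternatives with a test against no change.

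With the replicate number as a block, 11706 genes were called in all, 106 pathway genes and 9 of the 10 genes. Deviations of same-numbered libraries from their group means correlated across genes at 0.0779, 0.0623 and -0.00188. The first and second pairs correlated best with their own number and the third did not. Whether libraries of the same number are paired was therefore not settled.

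With the median length of a gene's transcripts, CDKN1A made up 72.6% of the CIP/KIP sum in the libraries labelled shSCUBE3 and 48.9% in Scramble libraries, and CDKN2D 60.2% and 42.5% of the INK4 sum. Depth was low for CDKN1C, SCUBE3 and CCND2, with at most 290, 107 and 62 reads a library.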
